A study of Drosophila melanogaster with 2 samples.

Results

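10 genes of Drosophila blood cells and of the basement membrane were followed in whole female larvae with and without a damaged wing disc. They were found by matching the transcript name of each array probe, through the RefSeq gene table, to Hml, NimC1, Pxn, Sr-CI, PPO1, PPO2, PPO3, Tig, vkg and Col4a1. All 10 were represented, by 11 probes, among 13137 genes and 14593 probes on the array; Pxn had 2 probes and each other gene 1. The ablated larvae were rnGAL4,UASegr,tubGAL80[ts]/+: in the pouch of the wing disc, the precursor of the wing, a rotund driver switched on eiger, a ligand of the tumour necrosis factor family that makes cells die, and temperature-sensitive GAL80 held it in check. The control larvae carried TM6, Tb[1] and tubGAL80, that is, a balancer marked with Tubby together with GAL80, and so differed from the ablated larvae in more than cell death. Both groups were in the third instar, the last larval stage, and were kept for 24 h at 30 °C, and the array titles give day 6. Each of 2 two-colour arrays set RNA of ablated larvae against RNA of control larvae. Ablated RNA carried the dye Cy5 on replicate 1 and Cy3 on replicate 2.

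Circulating and tissue-bound blood cells of the fly are mostly plasmatocytes, which engulf microbes and dead cells and gather on damaged tissue. Crystal cells store prophenoloxidases, the precursors of the enzymes that blacken wounds with melanin, and lamellocytes, which appear after wasp attack, make a further one. Blood cells and fat body secrete the sheet of collagen IV and associated proteins that wraps larval organs, the wing disc among them. In RNA from whole larvae, fewer blood cells and less RNA per blood cell cannot be told apart.

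Of the 10 genes, 5 were above local background in at least 1 channel, a share of 50%, beside 45.5% of all 13137 genes. A spot was called above background when its median brightness exceeded the median of the local background by 2 SD of that background. Between 15.0% and 38.1% of the 14785 gene spots passed in a channel, and of the 11 member probes 4 (ablated) and 3 (control) passed on replicate 1, and 3 (ablated) and 2 (control) on replicate 2. The probe of egr, the gene expressed to kill cells, was not above background in any channel and gives no check of the labels. Ilp8, which damaged discs release, and rn, whose driver was used, were above background in 2 channels each and had opposite signs on the arrays, with log2 ratios (ablated over control) of 1.05 and -0.99 for Ilp8 and 0.34 and -0.95 for rn, so that each reads one way on both arrays once the sign of replicate 2 is turned. A second probe of rn, also above background in 2 channels, read -0.0865 and 0.17. With the sign of replicate 2 turned it is below 0 on both arrays where the first probe is above, so rn gives no single direction. The labels do not say if the replicates were separate cultures; the p-values therefore reflect the spread of these samples alone, possibly a technical one. With so few arrays every value is imprecise. Across the 5971 genes tested, the arrays with exchanged dyes opposed each other in log2 ratio (Pearson's r = -0.53, Spearman's rho = -0.23, genes not being independent replicates). The direction of single genes is therefore unsettled. The dyes of the labels were kept, and values with the sign of replicate 2 turned are given too. If the labels hold, turned values are Cy5 over Cy3 on both arrays and are not ratios of ablated over control. Which reading holds was not tested. Errors are SD over the 2 arrays.

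**Figure D1:**
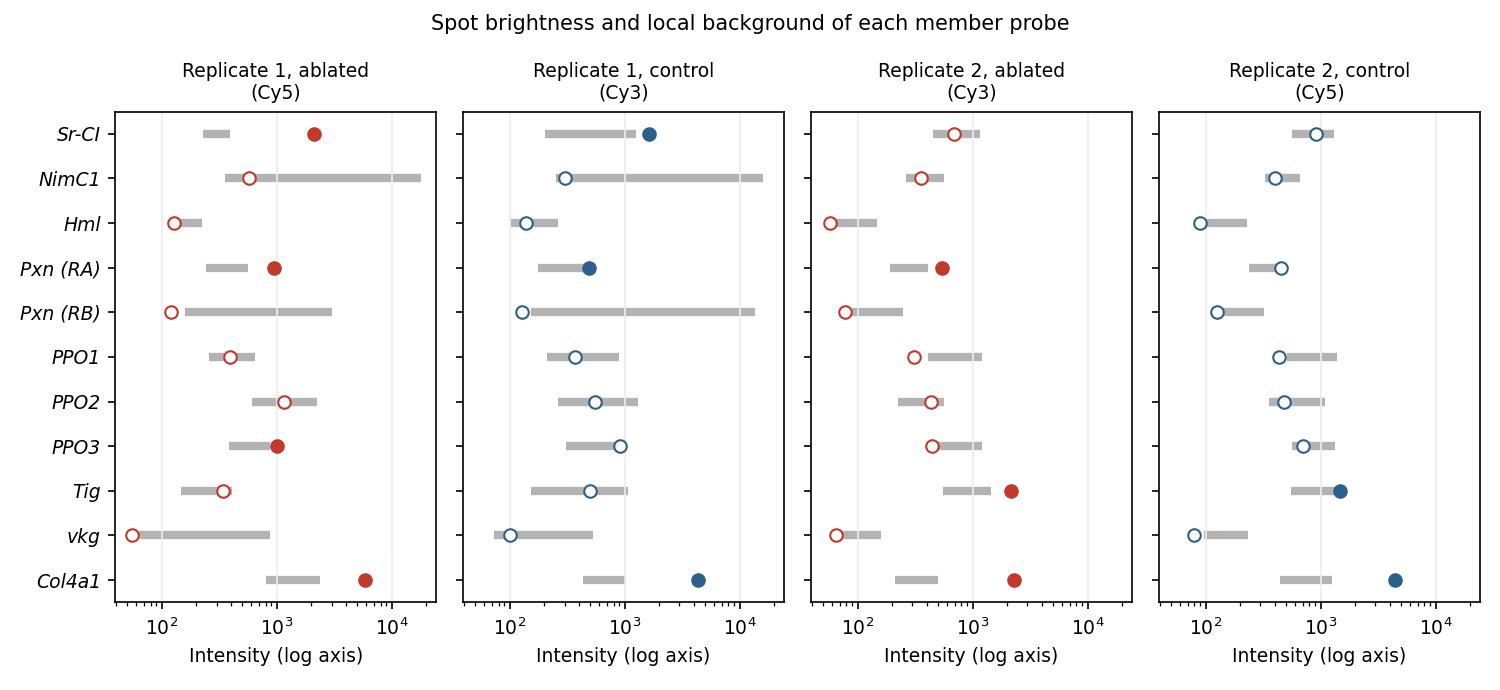
Spot median (circle) and the range from the local background median to 2 SD above it (grey bar) for each member probe, in scanner intensity on a log axis, by array and group. Filled circles lie above the bar. Col4a1 is filled in all 4 panels, and NimC1, Hml, PPO1, PPO2, vkg and the RB probe of Pxn in none.

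Of the plasmatocyte receptors, Sr-CI was above background and read lower in ablated larvae on both arrays, without passing the test, while NimC1 was at no point above background. Sr-CI is a scavenger receptor that binds bacteria. On replicate 1 its spot read 2121 over a background of 230 in ablated larvae and 1637 over 201 in control larvae, both above background. On replicate 2 it read 690 over 451 in ablated larvae and 910 over 561 in control larvae, neither above background. Brightness in the Cy5 and Cy3 channels depends on dye and scanner gain, so groups were compared after normalization. The normalized log2 level of Sr-CI was 10.09 and 9.30 in ablated larvae, against 10.37 and 9.71 in control larvae, so the ablated sample was the lower of the pair on each array while the groups overlapped across arrays. The log2 ratio (ablated over control) was -0.27 on replicate 1 and -0.40 on replicate 2 (-0.34 ± 0.0924, n = 2), with a 95% interval of -0.99 to 0.31, and it did not pass limma (adjusted p = 0.996). Over 12 probes printed 17 times each, copies of one probe had a median SD of 0.18 (replicate 1) and 0.19 (replicate 2) in the log2 ratio and SDs of up to 0.43 and 0.37. The ratio of Sr-CI was smaller in size than the largest of these SDs on replicate 1. On replicate 2, where neither of its channels was above background, it exceeded all 12 of them. These SDs were not matched to its brightness, so the spread of so dim a spot was not measured.

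NimC1, the Nimrod receptor through which plasmatocytes engulf bacteria, was not above background in any channel. Its spot on replicate 1 read 580 over 358 in ablated larvae and 303 over 251 in control larvae. There the local background had an SD of 8877 in the Cy5 channel (ablated), larger than beside 99.9% of gene spots, and of 7887 in the Cy3 channel (control). On replicate 2 the spot read 353 over 262 in ablated larvae and 398 over 327 in control larvae, with background SDs of 149 and 167. The low detection of NimC1 thus went with uneven background on one array and with a dim spot on the other. Its log2 ratios, 0.67 and 0.0421, are given without a test.

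Hml, hemolectin, a large clotting protein and a common plasmatocyte marker, was at background throughout. Its spot stood 10 above background in ablated larvae and 38 in control larvae on replicate 1, and 5 above in ablated larvae and 9 below in control larvae (-9) on replicate 2. Its log2 ratios of -0.00476 and 0.0195 therefore compare background with background and say nothing of the number of plasmatocytes.

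The prophenoloxidases were dim, and 1 of the 3 was tested. PPO3, the enzyme precursor of lamellocytes, read 1013 over 387 in ablated larvae and 917 over 311 in control larvae on replicate 1, where the ablated channel alone was above background. On replicate 2 it read 443 over 448 in ablated larvae and 706 over 569 in control larvae, neither above background. Its normalized log2 level was 8.91 and 7.995 in ablated larvae, against 9.37 and 8.81 in control larvae, lower in the ablated sample of each pair, with overlap across arrays. The log2 ratio was -0.46 on replicate 1 and -0.81 on replicate 2 (-0.63 ± 0.25, n = 2; 95% interval -1.37 to 0.11; adjusted p = 0.996 in limma). Its unadjusted p was 0.0703, or 0.596 with the sign of replicate 2 turned. The control RNA, the brighter by this ratio, was on neither array well above background, and no fold is given.

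PPO1 and PPO2, which crystal cells store, were not above background in any channel. PPO1 read 391 over 258 in ablated larvae and 368 over 212 in control larvae on replicate 1. On replicate 2 its spots were darker than their surroundings, by -106 in ablated larvae and -71 in control larvae, and its log2 ratios were -0.21 and -0.31. PPO2 was brighter than its surroundings in all 4 channels, at 1158 over 610 in ablated larvae and 551 over 265 in control larvae on replicate 1, and 435 over 225 in ablated larvae and 478 over 359 in control larvae on replicate 2. Its log2 ratios were 0.23 and 0.29, and the ablated sample was the higher of the pair on each array. The prophenoloxidase genes are related in sequence, and the files give no probe sequences, so a probe binding RNA of more than 1 of them was not tested.

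Of the matrix genes, Col4a1 was above background in 4 channels and Pxn in 3; the first read lower and the other higher in ablated larvae on both arrays, and neither passed the test. Col4a1 encodes the alpha 1 chain of collagen IV, a main component of the basement membrane, and was the member above background in every channel. Its spot read 5893 over 800 in ablated larvae and 4312 over 436 in control larvae on replicate 1, and 2304 over 212 in ablated larvae and 4456 over 440 in control larvae on replicate 2. The Cy5 channel was thus the brighter on both arrays, whichever RNA carried that dye. After normalization its log2 level was 11.32 and 11.85 in ablated larvae, against 11.61 and 12.86 in control larvae. The ablated sample was the lower of each pair, by -0.29 on replicate 1 and -1.01 on replicate 2, which are 1.23-fold and 2.02-fold, and the groups overlapped across arrays. The mean of -0.65 ± 0.51 (n = 2) had a 95% interval of -1.64 to 0.33 and did not pass limma (adjusted p = 0.996). Fat body, a main source of collagen IV in the larva, is listed below with its own markers. These were mixed, 3 lower and 1 higher on both arrays. Their median was 0.0907, or -0.0833 with the sign of replicate 2 turned.

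The partner chain, vkg (collagen IV alpha 2), is the immediate neighbour of Col4a1 in the RefSeq gene table, and both chains enter the same collagen molecule. Its probe was at background: the spot stood -9 from background in ablated larvae and 28 in control larvae on replicate 1, and 0 in ablated larvae and -16 in control larvae on replicate 2. The log2 ratios of vkg, -0.0508 and 0.0328, therefore neither match nor oppose those of Col4a1, and the balance of the chains cannot be read from these arrays.

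Pxn encodes peroxidasin, the matrix enzyme that links collagen IV molecules to each other, and read higher in ablated larvae on both arrays. Its RA probe read 943 over 242 in ablated larvae and 489 over 178 in control larvae on replicate 1, and 546 over 192 in ablated larvae and 455 over 237 in control larvae on replicate 2, above background in all but the last of these. The normalized log2 level was 9.08 and 9.64 in ablated larvae, against 8.69 and 9.32 in control larvae, higher in the ablated sample of each pair with overlap across arrays. The log2 ratio of 0.39 on replicate 1 and 0.33 on replicate 2 (0.36 ± 0.0433, n = 2) had a 95% interval of -0.28 to 1.00 and adjusted p = 0.996 in limma. With the sign of replicate 2 turned the mean was 0.0306 ± 0.51. The RB probe of Pxn was below its local background in all 4 channels and gave 0.17 and -0.0824, so the ratio of the RA probe has no further measurement. Pxn and Hml lie on chromosome arm 3L; TM6, carried by control larvae alone, is a balancer of that chromosome, and an effect of the balancer on these genes cannot be told apart from one of ablation.

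Tig, tiggrin, a matrix ligand of integrins at muscle attachments, had opposite signs on the arrays. Its spot read 344 over 148 in ablated larvae and 496 over 154 in control larvae on replicate 1, neither above background. On replicate 2 it read 2149 over 552 in ablated larvae and 1485 over 557 in control larvae, both above background. Normalized log2 levels were 8.09 and 11.46 in ablated larvae, against 8.83 and 10.89 in control larvae, so that the arrays differed from each other far more than the groups did. The log2 ratio was -0.74 on replicate 1 and 0.57 on replicate 2 (-0.0851 ± 0.92, n = 2; 95% interval -1.60 to 1.43; adjusted p = 0.996 in limma), and the Cy3 channel of Tig was the brighter on both arrays.

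**Figure D2:**
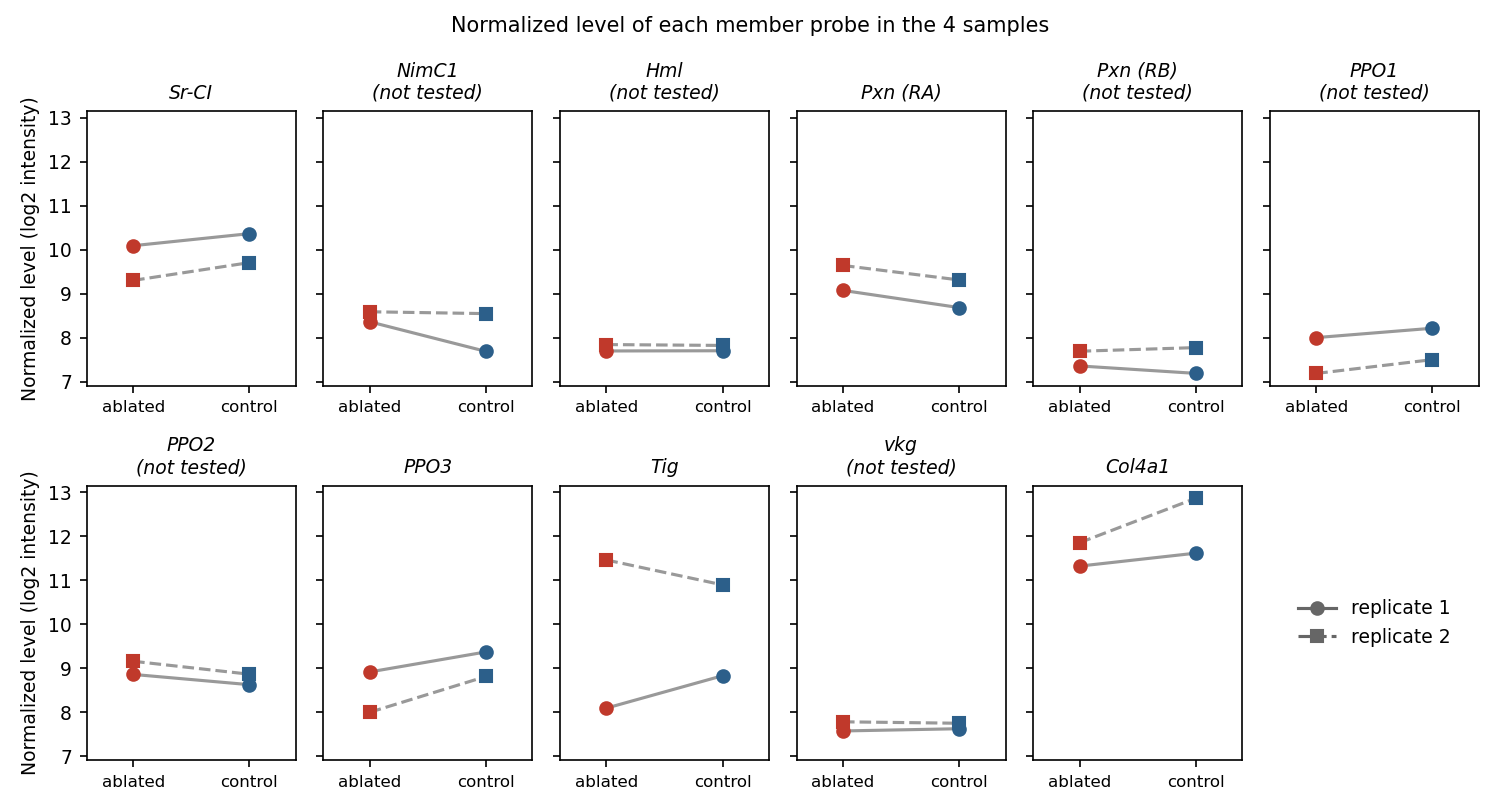
Normalized log2 level of each member probe in ablated (left) and control (right) larvae; circles and solid lines are replicate 1, squares and broken lines replicate 2. For Sr-CI, PPO3 and Col4a1 both lines run up to control larvae, for the RA probe of Pxn both run down, and for Tig they cross directions.

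Taking the 5 tested genes as a group, 3 were lower in ablated larvae on both arrays (Sr-CI, PPO3 and Col4a1), 1 was higher on both (Pxn) and 1 had opposite signs (Tig). Of all 5971 genes tested, 22.4% were lower on both arrays, 24.5% were higher on both and 53.2% had opposite signs. The median log2 ratio of the 5 was -0.34, with -0.29 on replicate 1 and -0.40 on replicate 2, beside a median of 0.00917 over all genes tested. These 5 passed the filter through whichever channel was bright and do not stand for the 5 that did not. At an adjusted p of 0.05 limma called 0 of the 5, and 0% of all genes tested. At an unadjusted p under 0.05 there were also 0 of the 5, and 2.41% of all genes (144). A difference of 2-fold or more that ran the same way on each array was seen for 0 of the 5 and for 0.402% of all genes. Normalized levels of the groups did not overlap for 0 of the 5 members; of all genes tested, ablated larvae lay wholly below control larvae for 4.24% and wholly above for 3.28%.

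Read with the sign of replicate 2 turned, which is Cy5 over Cy3 if the labels hold, the signs fell otherwise. Tig was then below 0 on both arrays, with a mean of -0.65 (adjusted p = 0.372 in limma). The other 4 had opposite signs on the arrays, with means of 0.0654 for Sr-CI, 0.0306 for Pxn, 0.18 for PPO3 and 0.36 for Col4a1. In that reading 26.1% of all genes were below 0 on both arrays, 27% were above and 46.8% had opposite signs. Limma called 0 of the 5 members and 8.63% of all genes (0 and 14.1% at an unadjusted p under 0.05).

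**Figure D3:**
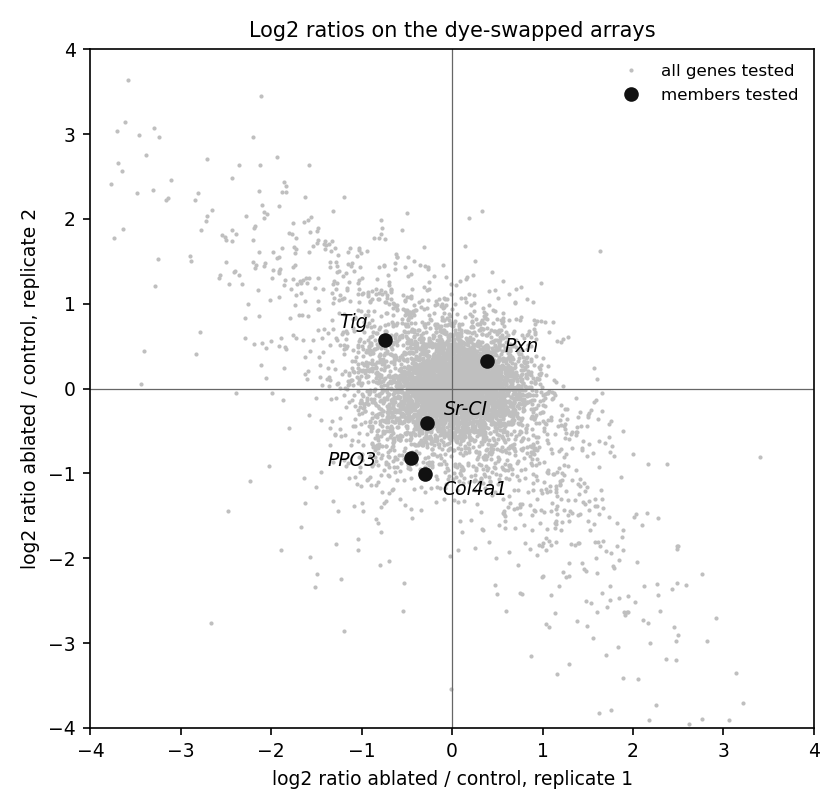
Log2 ratio of ablated over control larvae on replicate 1 (horizontal) and replicate 2 (vertical) for the 5971 genes tested (grey; 14 lie outside the axes) and the 5 tested members (black). Sr-CI, PPO3 and Col4a1 lie at the lower left, Pxn in the upper right and Tig in the upper left.

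A more lenient background rule, added after the data were seen, took a spot as above background when it exceeded its surroundings by more than the 95th percentile of 418 empty spots in that channel. All 10 genes then entered the fit of 10201 genes. NimC1 and PPO2 passed this rule in all 4 channels. Hml and vkg passed it in control larvae on replicate 1 alone, and PPO1 on replicate 1 alone. The ratios of Hml and vkg, still at background elsewhere, therefore give no direction, though they are in the counts below. The means were 0.36 ± 0.45 for NimC1, 0.26 ± 0.0432 for PPO2, -0.26 ± 0.0716 for PPO1, 0.00738 ± 0.0172 for Hml and -0.00897 ± 0.0591 for vkg (SD, n = 2). Of the 10, 4 were lower on both arrays, 3 were higher and 3 had opposite signs, against 24.8%, 22.1% and 53% of all genes in that fit, and limma called 0 of either at an adjusted p of 0.05. At an unadjusted p under 0.05 it gave 1 member, PPO3 (0.0467), and 3.31% of all genes.

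In the authors' deposited table of log2 ratios, which runs as ablated over control and is not centred (medians of 0.498 and -0.115), Pxn read 1.17 and 0.699 and PPO2 read 0.942 and 0.819. NimC1 read 2.11 and 0.379 there. The authors' deposited table gave 0.394 and -0.941 for Col4a1, 0.396 and -0.546 for Sr-CI and -0.797 and 0.785 for Tig. It held a value for PPO3 and for Hml on replicate 1 alone, 0.048 and -1.998, and none for vkg. PPO1 read -0.22 and 0.599 in the authors' deposited table, or -0.718 and 0.714 after centring, and the values computed here were below 0 on both arrays. On replicate 2 its spots were darker than their surroundings in both channels, by -106 (ablated) and -71 (control). The scanner's log2 ratio there, 0.578, divides negative values, so its sign and that of the deposited replicate 2 value carry no direction. Uncentred, Col4a1 and Sr-CI thus had opposite signs on the arrays, whereas after subtraction of each array's median they were lower on both, at -0.104 and -0.826 for Col4a1 and -0.102 and -0.431 for Sr-CI in the authors' deposited table.

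**Figure D4:**
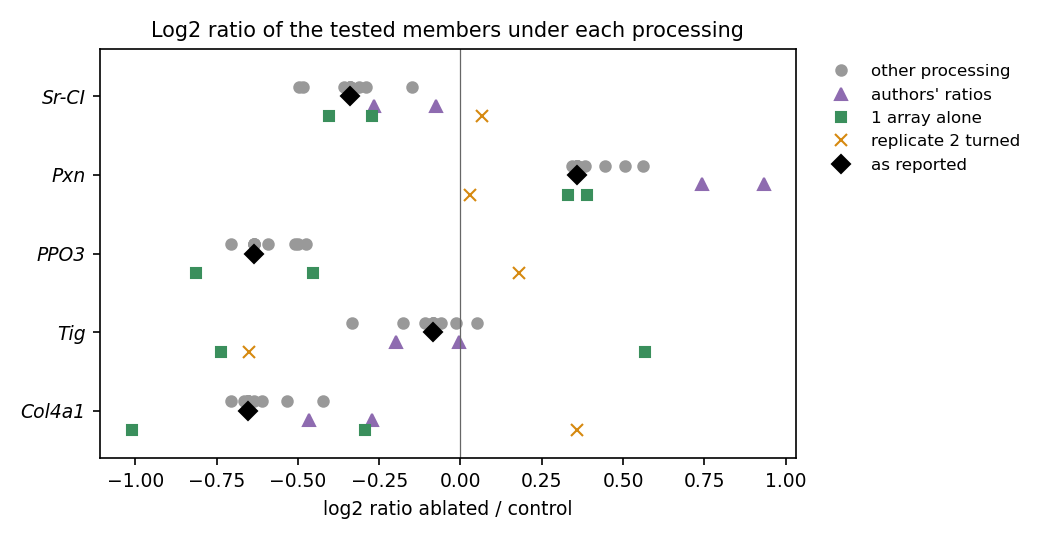
Log2 ratio of ablated over control larvae for the 5 tested members under each processing: as reported (diamond), other processing (circles), the authors' ratios (triangles), 1 array alone (squares) and replicate 2 with its sign turned (crosses). Pxn stays to the right of 0 throughout, and Sr-CI, PPO3 and Col4a1 lie to the left of 0 except with the sign turned.

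Other genes of the same cells and of the same matrix were read from lists. Each list below was chosen with earlier results of these data known, and limma called 0 members of any of the 7 lists of blood cell and matrix genes, at an adjusted p of 0.05 or at an unadjusted p under 0.05. Of 15 further plasmatocyte surface genes, 14 were on the array and 6 were tested; 2 were higher on both arrays, 0 were lower and 4 had opposite signs (median 0.15). Among them were Sr-CII, a relative of Sr-CI, at 0.24 ± 0.24, NimB2 at 0.16 ± 0.17 and NimC4, a receptor for dying cells, at -0.18 ± 0.39.

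Of 11 genes of the melanization cascade, 7 were tested, 3 were lower and 1 was higher on both arrays (median -0.0616). MP1, a protease of the cascade that was above background in all 4 channels, stood at -0.49 ± 0.0227. The protease Hayan stood at 0.54 ± 0.15, with control larvae on neither array well above background; 1.45-fold higher in ablated larvae is its measured fold and no minimum. The dopachrome converter yellow-f2 stood at -0.54 ± 0.18, also with control larvae not well above background, so it has no fold. With the sign of replicate 2 turned, MP1 stood at -0.0161 and Hayan at 0.10.

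Crystal cell and lamellocyte genes (13 on the array, 5 tested) had 0 lower and 1 higher on both arrays and a median of -0.0578. ItgaPS4, an integrin subunit of lamellocytes, stood at 0.29 ± 0.0492 and lz, the crystal cell transcription factor, at -0.12 ± 0.27. The receptor gene mthl10 stood at 0.32 ± 0.56, with control larvae not well above background; 1.25-fold higher in ablated larvae is its measured fold. Of 7 blood cell transcription factors 3 were tested, 1 lower and 1 higher on both arrays (median -0.12). They were kn, which lamellocyte formation requires, at -0.26 ± 0.30, Antp at 0.15 ± 0.0190 (its other probe, not above background, at -0.17) and zfh1 at -0.12 ± 0.32. The probe of kn was above background in control larvae on 1 array and in ablated larvae on 0. It entered the test through control larvae alone, and no fold is given. The Antp probe used was above background in ablated larvae on 1 array and in control larvae on 0.

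Of 15 further basement membrane genes, 7 were tested, 1 was lower on both arrays, 0 were higher and 6 had opposite signs (median -0.0475). The one lower on both was trol, perlecan, at -0.42 ± 0.16, though a second of its probes averaged 0.0737 and the third -0.27. The laminin gene LanB2 read -2.33 on replicate 1 and 1.23 on replicate 2 (-0.55 ± 2.52), and LanA read -0.13 and 0.49, with control larvae on neither array well above background. Of 9 genes of collagen making and secretion on the array 5 were tested, 2 lower and 1 higher on both arrays (median -0.17). PH4alphaEFB, which hydroxylates collagen, was above background in all 4 channels at 0.35 ± 0.28, against -0.65 for Col4a1. With the sign of replicate 2 turned both were above 0, at 0.20 and 0.36. Pdi, a folding enzyme, stood at -0.24 ± 0.15. Sar1, a GTPase of secretory vesicles, stood at -0.54 ± 0.36 with ablated larvae not well above background. For Sar1, 1.46-fold higher in control larvae is the measured fold and no minimum. The Sar1 probe used was above background in 1 channel. Its other probe, above background in 2 channels, averaged -0.0202. The 9 clotting genes, 4 of them tested, had 0 lower and 1 higher on both arrays (median 0.0715). Idgf1 stood at 0.28 ± 0.47, apolpp at 0.0907 ± 0.26 and fon at 0.0523 ± 0.0169. Idgf1 was above background in ablated larvae on 1 array and in control larvae on 0.

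With the sign of replicate 2 turned, the counts of these lists changed. For turned values, lower and higher mean below and above 0. Of the plasmatocyte surface genes tested, both arrays then put 3 below 0 and 1 above (median -0.14), and of the melanization genes 3 were lower and 0 higher (median -0.0589). Crystal cell and lamellocyte genes gave 2 lower and 2 higher (median -0.0348), and blood cell transcription factors 1 lower and 0 higher (median -0.22). Of the 7 basement membrane genes 4 were lower and 2 higher (median -0.22), against 1 and 0 with the labelled sign. Over all genes tested 26.1% were lower and 27% higher with the sign turned, against 22.4% and 24.5% with the labelled sign. Collagen making and secretion gave 1 lower and 1 higher (median -0.11), and clotting 0 lower and 3 higher (median 0.22).

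**Figure D5:**
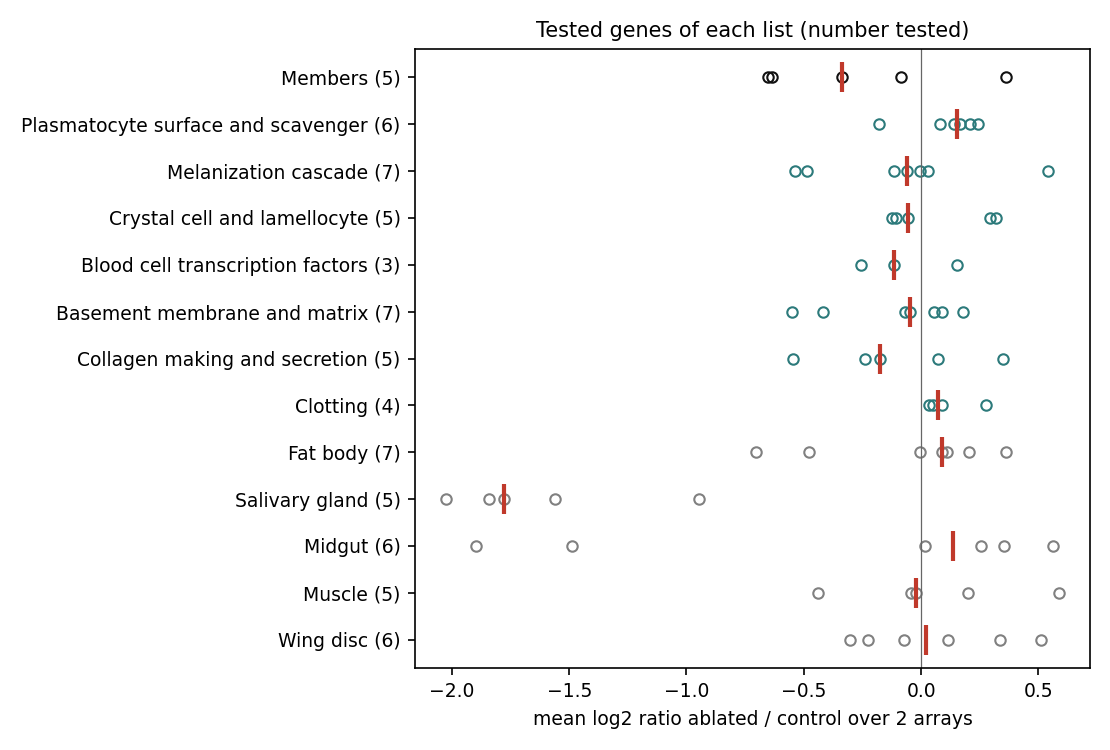
Mean log2 ratio of ablated over control larvae over 2 arrays for each tested gene (circles) and the median (red bar) of the members, 7 related lists and 5 lists of tissue markers, with the number tested in brackets. The members lie between -0.65 and 0.36, and with the labelled sign the salivary gland markers all lie below -0.9.

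Whole larvae hold other tissues, and with the labelled sign some of their markers read further from 0 than the members. All 7 fat body markers were tested, of which 3 read lower and 1 higher on each array (median 0.0907); Fbp1 (-0.70) was at an unadjusted p under 0.05. All 5 salivary gland markers were lower on both arrays (median -1.78), 4 of them at an unadjusted p under 0.05 and 0 at an adjusted p of 0.05. With the sign of replicate 2 turned, all 5 had opposite signs on the arrays and their median was 0.34. Medians were 0.14 for 6 midgut markers, -0.0212 for 5 muscle markers and 0.0212 for 6 wing disc markers. Of the midgut markers, 2 were lower and 4 higher on both arrays. The lower ones, LysB (-1.90) and LysD (-1.49), were at an unadjusted p under 0.05 in limma. Turned medians were -0.0833 for fat body, -0.0229 for midgut, -0.25 for muscle and 0.23 for wing disc. The part of tissue make-up in the values of the members was not tested.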

How the data were processed

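Per the file headers, GenePix Pro 7.1.25 quantified the arrays; the deposited intensity values are spot and local background medians, means and SDs at 635 and 532 nm. The deposited percent of saturated pixels was 0 for every member probe. The authors' deposited table of log2 ratios ran as ablated over control in both columns (r = 0.999 and -0.997 with the scanner's 635 over 532 nm ratio); the sources used here do not give its normalization. The labels' treatment text gives the permissive temperature opposite to the design text, which was followed.

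Probe names were matched by locus tag (8 members) or synonym (2 members) in the RefSeq table of assembly Release 6; the build behind the probes is not given, so no coordinates are printed. Intensities were background-corrected by normexp with an offset of 50, then loess-normalized per array, control spots having weight 0, in limma 3.58.1 (R 4.3.3). Channel levels are those after loess and Aquantile, used for display and for the folds of dim list genes. Spots of a probe were averaged, the brightest probe stood for a gene, replicate 2 was turned for its exchanged dyes, and probes above background in no channel were left out. Ratios of all 5971 genes were tested against 0 with lmFit and eBayes, two-sided, with Benjamini-Hochberg adjustment. The fit was also run on simulated data. There the arrays were drawn independently, unlike the opposed arrays here, so that run does not show how the fit behaves on these data. A fold given for a dim list gene sets the brighter group's mean against that of the other group. Per array, the other group's level is the higher of its measured level and the lowest level above background.

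Members and lists were chosen with earlier results of these data known. Named genes are the 10 members and the 3 tested genes of smallest p in each related list. The processing was varied in 17 ways, and in 1 more chosen after seeing the data.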

Additional observations from a re-analysis of the deposited data

How the results depend on the processing

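Over the alternatives that kept the labelled sign and both arrays, 13 for Pxn and Col4a1, 12 for Sr-CI and Tig and 9 for PPO3, Pxn stayed above 0 (0.34 to 0.93) and Sr-CI (-0.50 to -0.0750), PPO3 (-0.71 to -0.47) and Col4a1 (-0.71 to -0.27) below it, and limma called 0 genes. The stricter filter gave no value for Sr-CI, Tig or PPO3, nor did plain subtraction or the authors' values for PPO3. Tig ran from -0.33 to 0.04999, the last with median centring. Of 391 values of named genes under the alternatives 350 kept direction and call. Members made up 74 of the 391, and 69 of the 74 kept both. All tested members kept exactly the reported value with Aquantile, the mean over probes, no filter and the empty-spot rule. Such repeats are in all of these counts and are no check of the members' values. The call moved only with the sign of replicate 2 turned, as 0 genes were called with the labelled sign.

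With the sign of replicate 2 turned, 515 genes were called, and the member median was 0.0654. On both arrays 1 member was then below 0 and 0 were above. The means of opposite sign were then 0.36 (Col4a1), 0.0654 (Sr-CI), 0.18 (PPO3), -0.0134 (Antp), -0.0119 (fon), -0.0348 (ItgaPS4), -0.31 (LanA), -0.12 (NimB2) and 0.13 (yellow-f2), and LanB2 was called at -1.78. Members lower on both arrays numbered 1 with median centring, 1 with the stricter filter (2 members left) and 0 in the authors' uncentred values; 3 were higher without a filter and 3 by the empty-spot rule. The member median was -0.0470 in both latter cases, -0.15 with the stricter filter, -0.15 with median centring, -0.48 from pixel means, -0.0405 in the authors' values and -0.23 after centring these.

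Other reversals were, in the authors' uncentred and centred values, trol (1.20 and 1.01), yellow-f2 (1.04 and 0.85), zfh1 (0.32 and 0.13), NimB2 (-0.46 and -0.65) and NimC4 (0.23 and 0.0350). In the uncentred values alone lz read 0.14, and in the centred alone fon -0.0970 and LanA -0.14. Antp took its other probe (-0.17) without a filter and likewise (-0.17) by the empty-spot rule. Median centring gave 0.0317 for NimC4 and 0.0736 for zfh1, print-tip loess gave -0.0593 for apolpp and -0.0503 for fon, and trol read 0.0710 without background correction and 0.40 with plain subtraction. The cause was not tested.

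With 1 array left out, which leaves no test, values ran from -0.74 to 0.57 for Tig, -0.0928 to 0.27 for apolpp, -0.0533 to 0.61 for Idgf1, -0.13 to 0.49 for LanA, -2.33 to 1.23 for LanB2, -0.31 to 0.0645 for lz, -0.0796 to 0.72 for mthl10, -0.45 to 0.0928 for NimC4 and -0.34 to 0.11 for zfh1, and members higher numbered 1 to 2.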

Other observations

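Of the 7 further basement membrane genes tested, 4 had the signs of Tig, lower in ablated larvae on replicate 1 and higher on replicate 2 (57.1%, beside 26.1% of all genes tested). They were LanA, LanB2, Dg, which encodes the matrix receptor dystroglycan, at -0.28 and 0.15, and Mmp1, a metalloprotease that opens basement membrane, at -0.61 and 0.52; these genes were picked after their values were seen. Of the other 3, wb (0.45 and -0.27) and Glt (0.24 and -0.13) had the opposite signs and trol was lower on both arrays. The share with the signs of Tig was 50% for plasmatocyte surface genes, 42.9% for melanization and 40% for crystal cell and lamellocyte genes. It was 33.3% for blood cell transcription factors, 20% for collagen making and secretion and 0% for clotting. A high share was thus not particular to matrix genes.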
